A study of Mus musculus with 46 samples.

Results

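The genes described here were the integrins and laminins of mouse fibroblasts undergoing reprogramming. Members were taken by symbol, as all rows of the gene table named as an integrin alpha or beta subunit or as a laminin alpha, beta or gamma chain. The rule found 37 genes of 37108. The 36 described and counted here are 26 integrins (18 alpha and 8 beta subunits) and 10 laminins. All 37 were also found among the 35976 symbols of a second table, which lists transcripts.

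RNA-seq was done on mouse embryonic fibroblasts (MEF) that had received retroviral Oct4 together with either wild-type Nanog (NanogWT, labelled Nanog+Oct4) or a Nanog carrying the N-terminal part of the chromatin remodelling subunit SS18 (NanogBiD, labelled NanogN70+Oct4). Both combinations thus received Oct4 and a form of Nanog, and the fibroblasts came from OG2 embryos, which carry an Oct4-GFP reporter. D0 followed 2 rounds of infection, the iCD3 induction medium was then used, and the study's methods give a switch to N2B27 with 2iL (LIF and inhibitors of MEK and GSK3) after 7 days. Libraries of each combination covered 8 days from D0 to D12 (also D1, D3, D5, D7, D8 and D10), 2 for each day, except NanogBiD at D8 with 1. MEF without factors gave 2 libraries and OG2 embryonic stem cells (mES) gave 1. Stable iPSC gave 6 libraries from each combination, taken from lines labelled iPSC1 and iPSC2, unevenly in NanogWT. The NanogWT iPSC1 libraries labelled 1# and 1#-2 may share an origin, which the labels do not state. Each counted as a library in the main fits. Headings of the values mark every iPSC1 library p5 or p6 and every iPSC2 library p2, apparently passages. Line and passage thus cannot be told apart. The headings mark MEF p2 and mES p20. The labels do not say whether libraries of a group came from separate cultures, so p-values measured only the spread between these libraries, and they name no sorting of cells. In such bulk samples, fewer cells of a type and less RNA per cell cannot be told apart.

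Integrins are surface receptors made of 1 alpha and 1 beta subunit, and the alpha subunit largely sets which matrix protein is bound. Laminins are secreted trimers of an alpha, a beta and a gamma chain that form the core of basement membranes. Fibroblasts mainly hold collagen and fibronectin receptors, whereas pluripotent cells attach through laminin receptors and make laminins of their own.

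Values were the FPKM that the authors deposited, which are scaled to gene length and library total, so that levels of different genes can be set side by side. Differences were taken on log2(FPKM + 1) with limma, and a gene counted as called when its adjusted p was under 0.05 (Benjamini-Hochberg over all genes tested) and its log2 difference was 1 or more in size, the fold limit. Summed FPKM ran from 370030 to 462190 a library. Relative sequencing depth, read from the steps between low values, was 0.795 to 1.085 in 25 time-course libraries and 1.84 to 3.17 in the other 6, which were those of NanogWT from D8 onwards, so from D8 onwards depth and combination cannot be told apart. The summed FPKM of 10 fibroblast markers ran from 254 to 395 in NanogBiD and from 2443 to 2957 in NanogWT at D12, and that of 10 pluripotent cell markers from 1256 to 2225 and from 171 to 237, beside every member difference of that day. Their part in those differences was not tested.

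Of the 36 members, 25 reached 1 FPKM in at least 2 time-course libraries and were tested. The other 11 never exceeded 1.02 FPKM in a time-course library. No member was called between the combinations at D0 or D1, where limma called 0.76% and 1.33% of 16842 genes and 2668 and 2266 genes had an unadjusted p under 0.05. At D3, 4 members were lower in NanogBiD, against 3.7% of all genes called, and none of the 4 calls was kept when the D3 libraries were fitted alone. Of all genes at D3, 1.25% were called higher and 2.45% lower. At D5, 3 members were called (6.48% of all genes), 1 higher (3.2%) and 2 lower (3.28%). At D7, 5 were called (10.4%), 2 higher (5.79%) and 3 lower (4.65%). At D10 it was 14 (27.8%), 2 higher (15.4%) and 12 lower (12.3%), and at D12 12 (23.4%), 3 higher (13.5%) and 9 lower (9.97%). The change since D0 differed between the combinations for 7 members at D7 (10.1%), 3 of them higher in NanogBiD (5.2%) and 4 lower (4.88%), and for 12 at D12 (23.9%), 3 higher (13.4%) and 9 lower (10.5%). The median log2 difference of the tested members was -0.26 at D7 and -0.67 at D12, beside 0.08 and 0.17 over all tested genes.

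**Figure D1:**
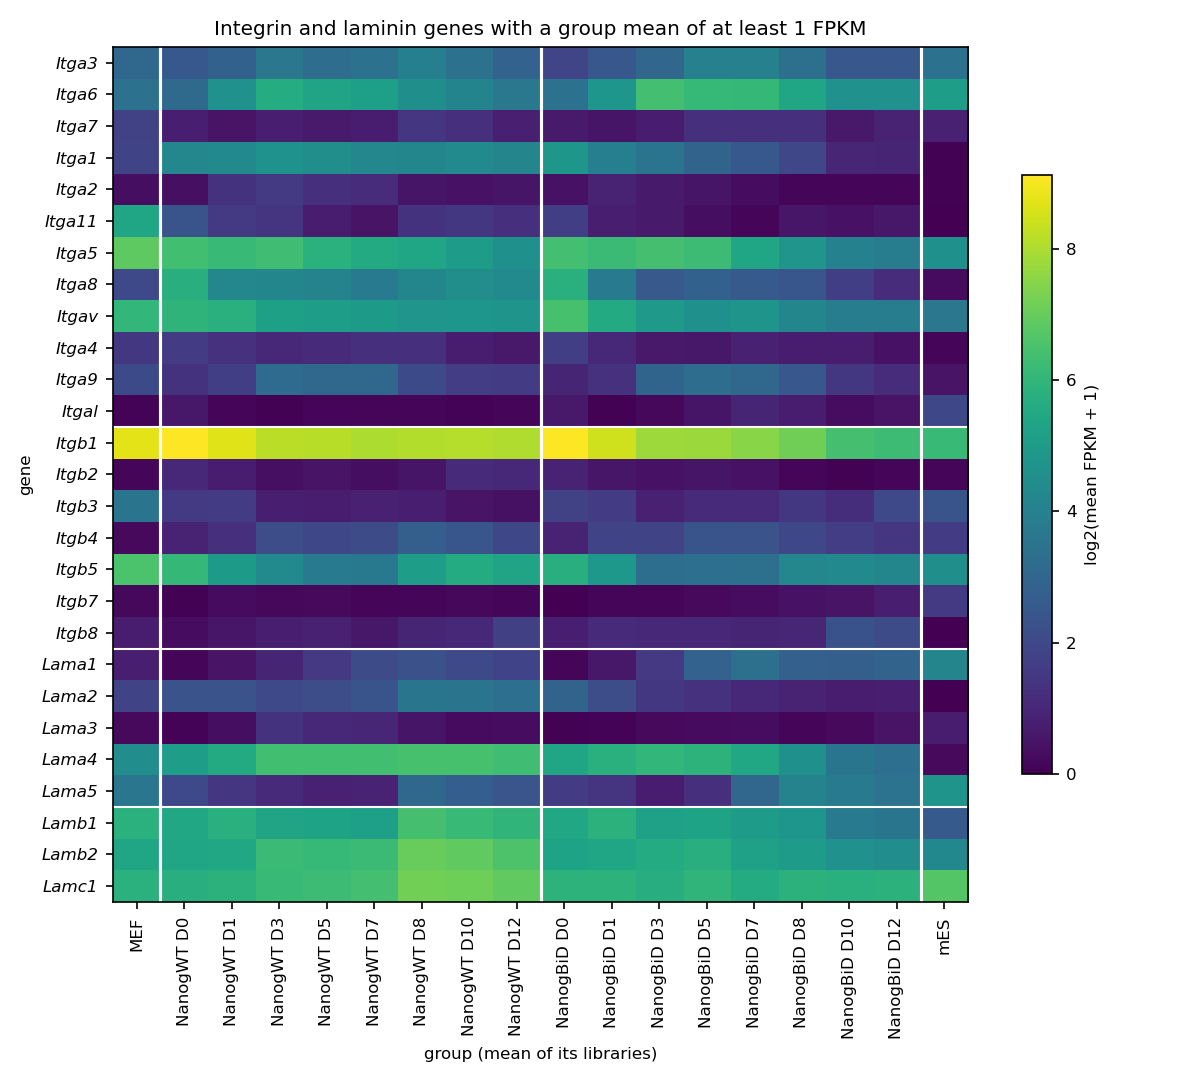
Mean expression of the 27 members that reached a group mean of 1 FPKM, as log2(mean FPKM + 1), by gene (vertical) and group (horizontal), with white lines between integrin alpha, integrin beta, laminin alpha, and laminin beta and gamma genes. Itgb1 is the brightest row in MEF and at D0. Itga1 and Lama4 darken by the end of the NanogBiD columns and stay bright in NanogWT. Itga8 darkens after D0 in both combinations, and further in NanogBiD. Lama2 darkens in NanogBiD and brightens from D8 in NanogWT.

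Of the laminin receptor subunits, Itga6 and Itgb4 rose in both combinations, and Itga6 stood higher in NanogBiD throughout. Itga6 (chr2:71745616-71858416, plus strand of mm10), which pairs with beta 1 or beta 4 to bind laminins, changed most among them from D0 to D7. NanogBiD libraries held Itga6 at 9.55 and 10.1 on D0, 28.8 and 24.9 on D1, 71.8 and 96.2 on D3, 66.6 and 70.9 on D5, 66.6 and 65.6 on D7, 40.3 on D8, 26.3 and 20.5 on D10, and 24.0 and 22.7 on D12 FPKM. NanogWT libraries held Itga6 at 6.36 and 9.40 on D0, 23.7 and 24.0 on D1, 50.9 and 48.3 on D3, 40.5 and 38.3 on D5, 33.5 and 34.9 on D7, 25.5 and 19.5 on D8, 15.8 and 16.9 on D10, and 10.5 and 12.9 on D12 FPKM. NanogBiD lay above NanogWT without overlap at every day, D0 included. Itga6 stood at 8.95 and 10.7 in MEF and 33.0 in mES, so both combinations were above MEF from D1 to D10, and at D12 NanogWT stood next to the higher MEF library. The rise from D0 to D7 was 2.63 ± 0.17 (SE, adjusted p = 2.72e-10) in NanogBiD and 2.01 ± 0.17 (SE, adjusted p = 1.09e-08) in NanogWT, and both were called. Between the combinations, Itga6 differed by 0.93 ± 0.17 (SE, adjusted p = 0.000327) at D7 and 0.95 ± 0.17 (SE, adjusted p = 0.000108) at D12, which passed the p threshold but fell under the fold limit. The difference between the D0 to D7 rises, 0.63 ± 0.24 (SE, adjusted p = 0.0841), was not called.

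Itga3, the alpha subunit of a receptor for epithelial laminins, stood at 8.61 and 6.20 in MEF and 9.71 in mES. It stood at 2.54 and 3.05 on D0 against 18.0 and 11.2 on D7 in NanogBiD, and at 3.63 and 5.78 on D0 against 11.7 and 8.13 on D7 in NanogWT. The rise was called in NanogBiD (2.01) and was 0.94, under the fold limit, in NanogWT. The difference between both rises was called at 1.06 ± 0.34 (SE, adjusted p = 0.0411), and was lost without either NanogBiD library of D0, NanogBiD replicate 1 of D7, or NanogWT replicate 2 of D0 or of D7 (adjusted p of 0.0667 to 0.205 in limma), and with all values rescaled to a common total (adjusted p = 0.0725). Itga3 then held 5.08 and 3.96 in NanogBiD and 6.92 and 5.58 in NanogWT at D12. Itga7, the laminin receptor subunit of muscle, stayed between 0.351 and 1.91 FPKM in the time course, where it was called at no day and in no change with time, and was lower at D0 than in MEF.

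The beta 4 subunit gene Itgb4, whose only known partner is alpha 6, rose in both combinations. MEF held Itgb4 at 0.227 and 0.131 FPKM. NanogBiD held 1.10 and 0.549 on D0 against 5.03 and 3.08 on D7, and NanogWT 1.02 and 0.626 on D0 against 4.16 and 2.42 on D7. The D0 to D7 change was 1.46 in NanogBiD and 1.21 in NanogWT, both called, the latter not without NanogWT replicate 1 of D7 (0.92) or with quantile normalization (0.90). The combinations were not called apart at any day. Itgb4 shares 437 exon bases with the opposite-strand RNA B230344G16Rik, and since strand use in counting is not stated, reads of both cannot be told apart.

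Itga6 also differed between MEF and iPSC in which of its transcripts led. The transcripts NM_008397.4 and NM_001277970.1 differ at the end of the coding region. The first holds an extra exon, number 25 of 26, whose in-frame stop gives a different cytoplasmic tail, known as the A form, while the second skips that exon and takes its tail, the B form, from the last exon. The transcripts also differ at their 5' end. There NM_008397.4 has an exon at chr2:71786978-71787320, and NM_001277970.1 has exons at chr2:71786940-71787008 and chr2:71787084-71787320. The 2 tail-coding stretches are shown because they are what separates the 2 tails. Lower case marks the last 15 bases of the exon shared by both and capitals mark the coding bases of the alternative exon (105 bases, chr2:71853534-71853638, plus strand) and of the last exon (159 bases, chr2:71855854-71856012, plus strand), from the GENCODE M21 transcripts of GRCm38.
A form, NM_008397.4: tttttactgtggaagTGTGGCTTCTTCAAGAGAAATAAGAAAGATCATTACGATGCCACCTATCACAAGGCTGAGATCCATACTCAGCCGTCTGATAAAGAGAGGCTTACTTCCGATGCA
B form, NM_001277970.1: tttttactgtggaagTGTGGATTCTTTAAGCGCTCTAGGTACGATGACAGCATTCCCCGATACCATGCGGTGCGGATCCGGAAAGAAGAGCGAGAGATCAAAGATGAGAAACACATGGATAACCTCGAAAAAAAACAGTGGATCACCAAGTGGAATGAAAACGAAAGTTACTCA

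In MEF, the transcript with the exon held 78.9% and 86.3% of Itga6 FPKM. In the 12 iPSC libraries it held between 0% and 32.2%, with a median of 4.00%, and in mES it was listed at 0. In FPKM, NM_008397.4 stood at 7.36 and 8.22 in MEF and between 0 and 6.74 in iPSC, with 4 libraries at 0. NM_001277970.1 stood at 1.17 and 2.204 in MEF, between 13.7 and 29.1 in iPSC and at 31.6 in mES. The form without the exon thus carried the higher iPSC total, while the highest iPSC value of the form with it lay just under the MEF values. Of the 7 described members with at least 2 transcripts to compare, Itga6 was the 1 whose share of the leading MEF transcript did not overlap between MEF and iPSC libraries. Over all such genes, 13.3% of 5177 did not overlap. A count of 1 in 7 is near that share and is not read as particular to the members. These shares are estimates from short reads, several were listed at exactly 0, and the transcript table covers MEF, iPSC and mES. For Itga6, reads over the differing 5' exons can enter the estimates too, so the shares need not rest on the tail exons alone.

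**Figure D2:**
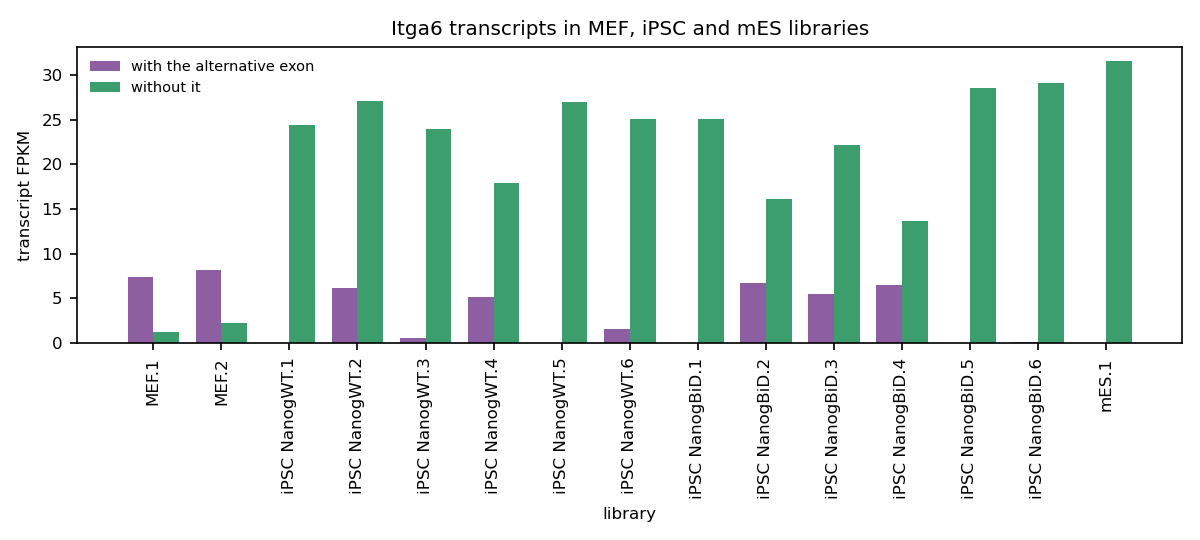
FPKM of the 2 Itga6 transcripts (vertical) in each MEF, iPSC and mES library (horizontal), as bars from 0. The form with the alternative exon is the taller bar in both MEF libraries, and the form without it is the taller bar in all 12 iPSC libraries and in mES.

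Among collagen receptors, Itga1 went the other way, with an early and lasting fall in NanogBiD. Itga1 (chr13:114953096-115101964, minus strand), a collagen-binding alpha subunit that pairs with beta 1, was the member with the largest gap at D7 among those lower in NanogBiD. NanogBiD libraries held Itga1 at 30.5 and 25.1 on D0, 14.9 and 14.1 on D1, 6.40 and 14.2 on D3, 5.90 and 7.01 on D5, 4.74 and 4.77 on D7, 2.85 on D8, 1.00 and 0.962 on D10, and 0.827 and 1.02 on D12 FPKM. NanogWT libraries held Itga1 at 13.6 and 21.4 on D0, 17.7 and 21.1 on D1, 21.7 and 26.5 on D3, 22.2 and 21.8 on D5, 15.4 and 19.8 on D7, 15.3 and 19.6 on D8, 19.5 and 19.0 on D10, and 15.2 and 18.1 on D12 FPKM. NanogBiD started above NanogWT at D0 and lay below it, without overlap, from D1 on. NanogWT held between 13.6 and 26.5 throughout, while both NanogBiD libraries of D12 were near 1. Itga1 stood at 3.41 and 1.84 in MEF and 0.0460 in mES. The difference was called at D3 (-1.24 ± 0.25 (SE, adjusted p = 0.00243)), D5 (-1.63), D7 (-1.68 ± 0.25 (SE, adjusted p = 3.77e-05)), D10 (-3.35) and D12 (-3.19 ± 0.25 (SE, adjusted p = 4.01e-09)). Without NanogBiD replicate 1, the D3 call of Itga1 was lost (adjusted p = 0.0709 in limma). The D0 to D12 change was -3.90 in NanogBiD and -0.04 in NanogWT, and the difference of the changes was called at -3.86 ± 0.35 (SE, adjusted p = 1.14e-07).

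Itga11, a collagen receptor of fibroblasts, was high in uninfected cells, at 48.3 and 31.7 FPKM in MEF. By D0 Itga11 stood at 2.16 and 2.38 in NanogBiD and 3.42 and 4.87 in NanogWT, and at D7 between 0.125 and 0.448 in the 4 libraries. It was called lower in NanogBiD at D10 (-1.01), a call lost without replicate 2 of either combination (-0.88 and -0.91). Itga11 was listed at 0 in mES. Itga2, the collagen receptor of platelets and epithelia, stood at 1.53 and 2.41 in NanogWT and 0.206 and 0.981 in NanogBiD at D3. Its D7 difference of -0.86 ± 0.20 (SE, adjusted p = 0.00342) did not reach the fold limit. Itga10, a collagen receptor of cartilage, reached 0.777 FPKM at most in the time course and was not tested.

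Among the subunits that bind the RGD motif of fibronectin and related proteins, Itga8 (chr2:12106632-12301922, minus strand) differed most. It pairs with beta 1 as a receptor for nephronectin. NanogBiD libraries held Itga8 at 56.1 and 52.6 on D0, 11.8 and 13.5 on D1, 3.42 and 6.28 on D3, 6.82 and 5.61 on D5, 4.46 and 5.41 on D7, 4.47 on D8, 2.31 and 2.11 on D10, and 1.01 and 1.42 on D12 FPKM. NanogWT libraries held Itga8 at 46.5 and 56.6 on D0, 17.6 and 17.5 on D1, 14.6 and 19.6 on D3, 15.6 and 16.1 on D5, 11.3 and 13.2 on D7, 13.6 and 20.6 on D8, 22.1 and 21.8 on D10, and 18.4 and 19.5 on D12 FPKM. The combinations overlapped at D0 and were lower at D1, and from D1 on NanogBiD lay below NanogWT at each day without overlap. Itga8 stood at 3.84 and 2.14 in MEF and 0.190 in mES, so the D0 level was far above that of uninfected cells. The difference was called at D3 (-1.66 ± 0.21 (SE, adjusted p = 2.09e-05)), D5 (-1.23), D7 (-1.16 ± 0.21 (SE, adjusted p = 0.000297)), D10 (-2.84) and D12 (-3.18 ± 0.21 (SE, adjusted p = 4.34e-10)). From D0 to D12 Itga8 changed by -4.65 in NanogBiD and -1.39 in NanogWT, and the difference of the changes was called at -3.26 ± 0.29 (SE, adjusted p = 1.05e-07). Itga8 shares 372 exon bases with the opposite-strand RNA E030013I19Rik, so reads of both cannot be told apart here. The same holds for Itgav (634 bases, Gm13684), Lama2 (538, Gm48084) and Lama3 (197, Gm29200), all with opposite-strand genes. Itga1 shares 451 exon bases with the same-strand gene Gm49395.

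Itga5, the alpha subunit of the main fibronectin receptor, was among the 3 highest alpha subunits in the infected cells at D0. Itga5 in NanogBiD stood at 80.9 and 84.4 on D0, 40.8 and 42.2 on D7, and 15.7 and 11.1 on D12 FPKM, and in NanogWT at 81.4 and 81.0 on D0, 48.2 and 44.4 on D7, and 26.1 and 19.7 on D12. Both falls from D0 to D12 were called, at -2.55 ± 0.19 (SE, adjusted p = 7.18e-10) and -1.79 ± 0.19 (SE, adjusted p = 2.75e-07). NanogBiD was called lower at D10 (-1.08), but not without NanogBiD replicate 2 (-0.74) or NanogWT replicate 1 (-0.99), and at D12 the difference was -0.73 ± 0.19 (SE, adjusted p = 0.00291), under the fold limit. The vitronectin receptor subunit Itgav also fell, with 78.1 and 98.1 on D0 against 13.6 and 13.5 on D12 in NanogBiD and 40.5 and 79.8 on D0 against 22.0 and 28.6 on D12 in NanogWT. Those falls were -2.61 and -1.15, and their difference was called at -1.46 ± 0.37 (SE, adjusted p = 0.00474). The NanogWT D0 libraries of Itgav were far apart, and without replicate 2 of D0 its fall was not called (adjusted p = 0.055 in limma), nor without replicate 1 of D12 (-0.97), and the difference of the falls was not called without NanogWT replicate 1 of D0 (-0.98). Itga2b, the platelet fibrinogen receptor subunit, reached 0.646 FPKM at most in the time course.

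Set side by side, the shares of the alpha subunit classes moved most in NanogBiD, where RGD-binding and laminin-binding subunits ended level. RGD-binding subunits held 71.6% of summed alpha-subunit FPKM in MEF, 82.4% at D0, 52.1% at D3, 42.6% at D7, 48.0% at D10 and 46.4% at D12 of NanogBiD, 82.9% at D0 and 62.7% at D12 of NanogWT, and 42.1% in mES. Laminin-binding subunits held 8.06% in MEF, 4.82% at D0, 39.7% at D3, 48.8% at D7, 44.9% at D10 and 47.0% at D12 of NanogBiD, and 52.3% in mES. In NanogWT they held 5.65% at D0, 26.8% at D3, 27.6% at D7, 20.7% at D10 and 17.4% at D12. Their summed FPKM fell after D7 in both, from 82.1 to 28.5 at D10 and 28.8 at D12 in NanogBiD. In NanogWT it went from 44.7 to 27.6 and 18.7. The sum over all alpha subunits fell from 168 at D7 to 61.2 at D12 in NanogBiD and from 162 to 107 in NanogWT. Collagen-binding subunits held 18.2% in MEF, went from 9.40% at D0 to 17.3% at D12 in NanogWT and from 11.3% to 2.87% in NanogBiD, and held 0.374% in mES. At D12 the laminin-binding share ran from 46.4% to 47.7% in NanogBiD and from 17.2% to 17.6% in NanogWT, and the collagen-binding share in MEF from 11.7% to 24.7%. No test was made on shares.

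**Figure D3:**
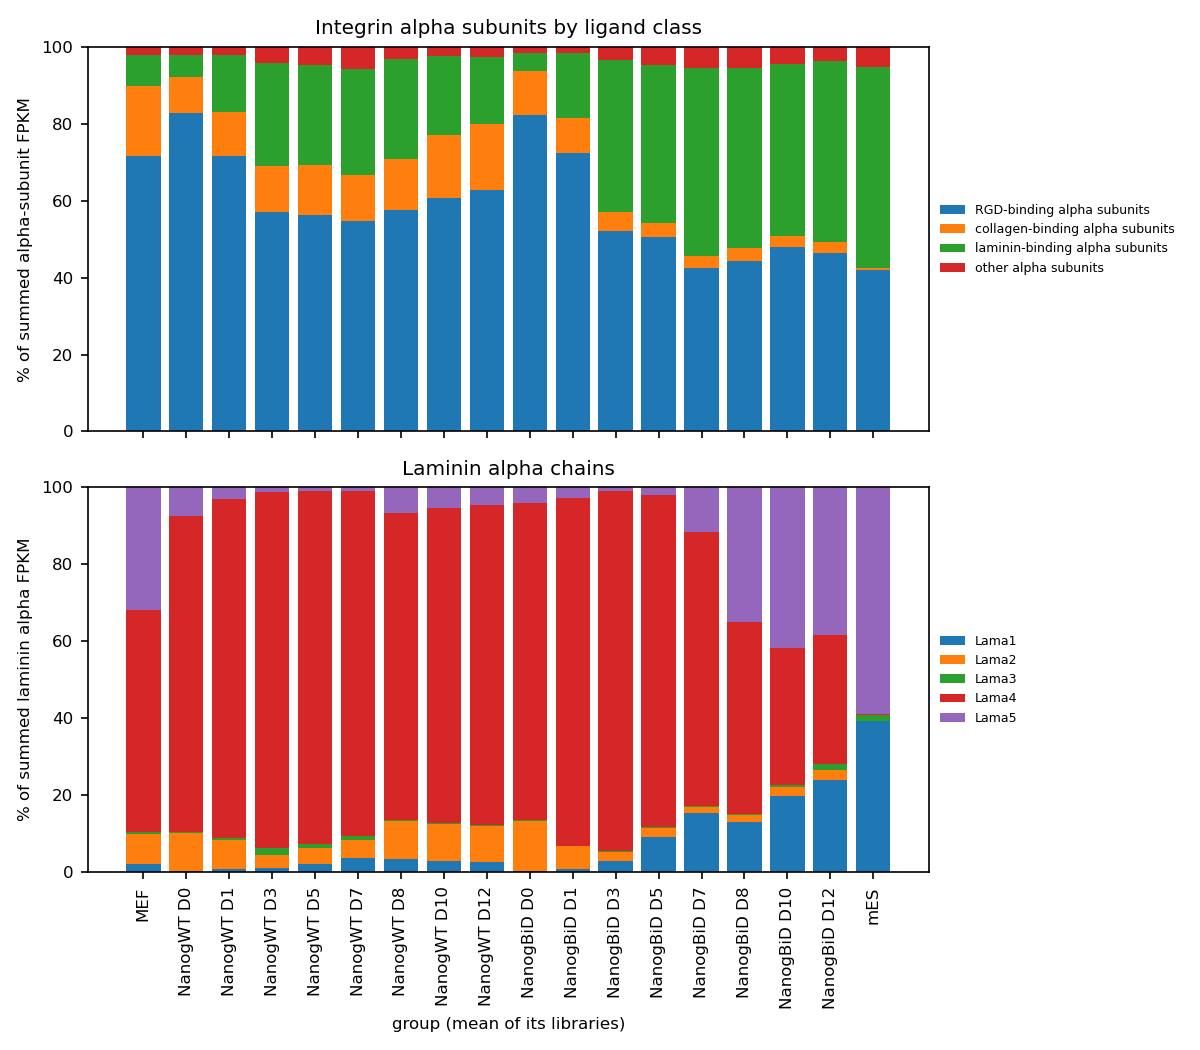
Upper panel, share of summed integrin alpha-subunit FPKM (vertical, %) held by each ligand class in each group (horizontal). Lower panel, share of summed laminin alpha-chain FPKM held by each laminin alpha gene. The laminin-binding band widens to about the mES width in NanogBiD and narrows again in NanogWT, and the Lama4 band gives way to Lama1 and Lama5 in the NanogBiD columns from D7 and is almost gone in mES.

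The remaining alpha subunits were low. Itga9, a tenascin receptor subunit, held 1.07 and 0.747 on D0 against 8.27 and 6.47 on D7 FPKM in NanogBiD and 1.16 and 1.85 on D0 against 6.90 and 8.13 on D7 in NanogWT. Both rises were called (2.13 and 1.78), and at D12 it was back at 1.19 to 2.49 FPKM in the 4 libraries. Itga4, which binds VCAM1 and fibronectin, held 2.27 and 2.202 on D0 against 0.217 and 0.497 on D12 in NanogBiD, a called fall (-1.26). NanogWT held Itga4 at 1.13 and 3.05 on D0 against 0.515 and 0.537 on D12. Itga4 shares 905 exon bases with the opposite-strand gene Cerkl. Itgal, the alpha subunit of the leukocyte receptor LFA-1, was not tested in the time course, where it reached 0.953 FPKM at D7 of NanogBiD, and stood at 2.90 in mES. Itgam reached 1.02 FPKM in 1 NanogWT library of D0, and Itgad, Itgae and Itgax reached 0.0382, 0.177 and 0.097 at most. The summed FPKM of 8 macrophage and leukocyte markers was 55.4 to 165 in the 4 D0 libraries and 5.38 to 11.2 in MEF, and their part in the D0 values of Itgam and of the leukocyte beta subunit Itgb2 (0.451 to 1.67 at D0, 0.109 and 0.134 in MEF) was not tested. Itgb2 was called lower in NanogBiD at D10 (-1.01 ± 0.24 (SE, adjusted p = 0.00164)), when 1 of the NanogBiD libraries was listed at 0, and not without replicate 1 of either combination (-0.95 and -0.72). The macrophage and leukocyte markers summed to 4.52 and 8.07 FPKM in NanogBiD and 12.3 and 45.9 in NanogWT at D10, and their part in that call was not tested.

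Among beta subunits, Itgb1 (chr8:128685654-128733200, plus strand), the common partner of most alpha subunits above, was the most abundant member. NanogBiD libraries held Itgb1 at 571 and 543 on D0, 306 and 397 on D1, 209.9 and 233 on D3, 214 and 221 on D5, 192 and 171 on D7, 141 on D8, 91.8 and 81.2 on D10, and 77.1 and 73.3 on D12 FPKM. NanogWT libraries held Itgb1 at 520.1 and 598 on D0, 383 and 436 on D1, 291 and 294 on D3, 277 and 283 on D5, 251 and 263 on D7, 276 and 261 on D8, 284 and 269.6 on D10, and 259 and 264 on D12 FPKM. NanogWT levelled off after D3, while NanogBiD went on falling to about the mES level. Itgb1 stood at 344 and 521 in MEF and 71.8 in mES. The difference was under the fold limit at D7 (-0.50 ± 0.13 (SE, adjusted p = 0.00685)) and called at D10 (-1.67) and D12 (-1.79 ± 0.13 (SE, adjusted p = 2.01e-09)). The fall from D0 to D12 was larger in NanogBiD (-2.87) than in NanogWT (-1.09), with a difference of -1.78 ± 0.19 (SE, adjusted p = 6.09e-07). Without replicate 2 of D0, the NanogWT fall was -0.99, under the fold limit.

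Itgb5 (chr16:33829665-33949338, plus strand), a partner of alpha v at vitronectin, was lower from D3 to D7 than before or after. NanogBiD libraries held Itgb5 at 58.7 and 49.0 on D0, 29.9 and 26.1 on D1, 9.59 and 8.31 on D3, 9.41 and 8.53 on D5, 10.9 and 7.74 on D7, 17.8 on D8, 24.8 and 14.1 on D10, and 20.6 and 13.7 on D12 FPKM. NanogWT libraries held Itgb5 at 76.3 and 57.1 on D0, 32.4 and 29.3 on D1, 17.2 and 21.5 on D3, 10.5 and 14.7 on D5, 13.1 and 10.8 on D7, 35.6 and 31.5 on D8, 51.1 and 44.5 on D10, and 46.1 and 32.4 on D12 FPKM. The lowest values lay between D3 and D7 in both, the combinations overlapped at D0, D1 and D7, and NanogBiD lay below NanogWT at the other days. Itgb5 stood at 91.5 and 92.3 in MEF and 22.1 in mES. It was called lower in NanogBiD at D3 (-1.03 ± 0.25 (SE, adjusted p = 0.011)), at D10 (-1.30) and at D12 (-1.16 ± 0.25 (SE, adjusted p = 0.000721)). The D3 difference was lost without replicate 2 of either combination (adjusted p = 0.0657 and 0.13 in limma), the D10 difference without NanogBiD replicate 2 (-0.92), and the D12 difference dropped under the fold limit without NanogBiD replicate 2 or NanogWT replicate 1 (-0.87 and -0.91).

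Itgb3 (chr11:104608000-104670476, plus strand), the beta subunit of a second vitronectin receptor, was the only tested integrin called higher in NanogBiD at D12. NanogBiD libraries held Itgb3 at 2.33 and 2.72 on D0, 1.25 and 2.76 on D1, 0.560 and 0.986 on D3, 1.12 and 1.16 on D5, 1.32 and 0.928 on D7, 1.82 on D8, 1.56 and 1.02 on D10, and 3.61 and 2.39 on D12 FPKM. NanogWT libraries held Itgb3 at 1.77 and 2.13 on D0, 1.43 and 2.61 on D1, 0.523 and 0.894 on D3, 0.663 and 0.558 on D5, 0.719 and 0.813 on D7, 0.764 and 0.651 on D8, 0.391 and 0.403 on D10, and 0.237 and 0.404 on D12 FPKM. The combinations overlapped at D1 and D3, and from D5 on NanogBiD lay above NanogWT. Itgb3 stood at 4.89 and 15.9 in MEF and 4.14 in mES, with the MEF libraries far apart. The difference was 0.26 ± 0.23 (SE, adjusted p = 0.434) at D7 and 1.58 ± 0.23 (SE, adjusted p = 8.75e-06) at D12.

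Itgb8, whose product binds latent TGF-beta with alpha v, stood at 2.72 and 5.10 FPKM in NanogBiD and 0.603 and 1.41 in NanogWT at D10, where it was called higher in NanogBiD (1.28 ± 0.21 (SE, adjusted p = 4.26e-05)). At D12 Itgb8 ran from 2.11 to 3.87 over the 4 libraries, a called rise from D0 in both (lost with quantile normalization, 0.73 and 0.97), and mES was listed at 0. Without NanogBiD replicate 2 or NanogWT replicate 1 the D10 difference fell under the fold limit (0.92 and 0.99). Itgb7, a leukocyte beta subunit, reached 0.907 FPKM in 1 NanogBiD library of D12 and 1.97 in mES, and Itgb6 reached 0.0744 at most in the time course.

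**Figure D4:**
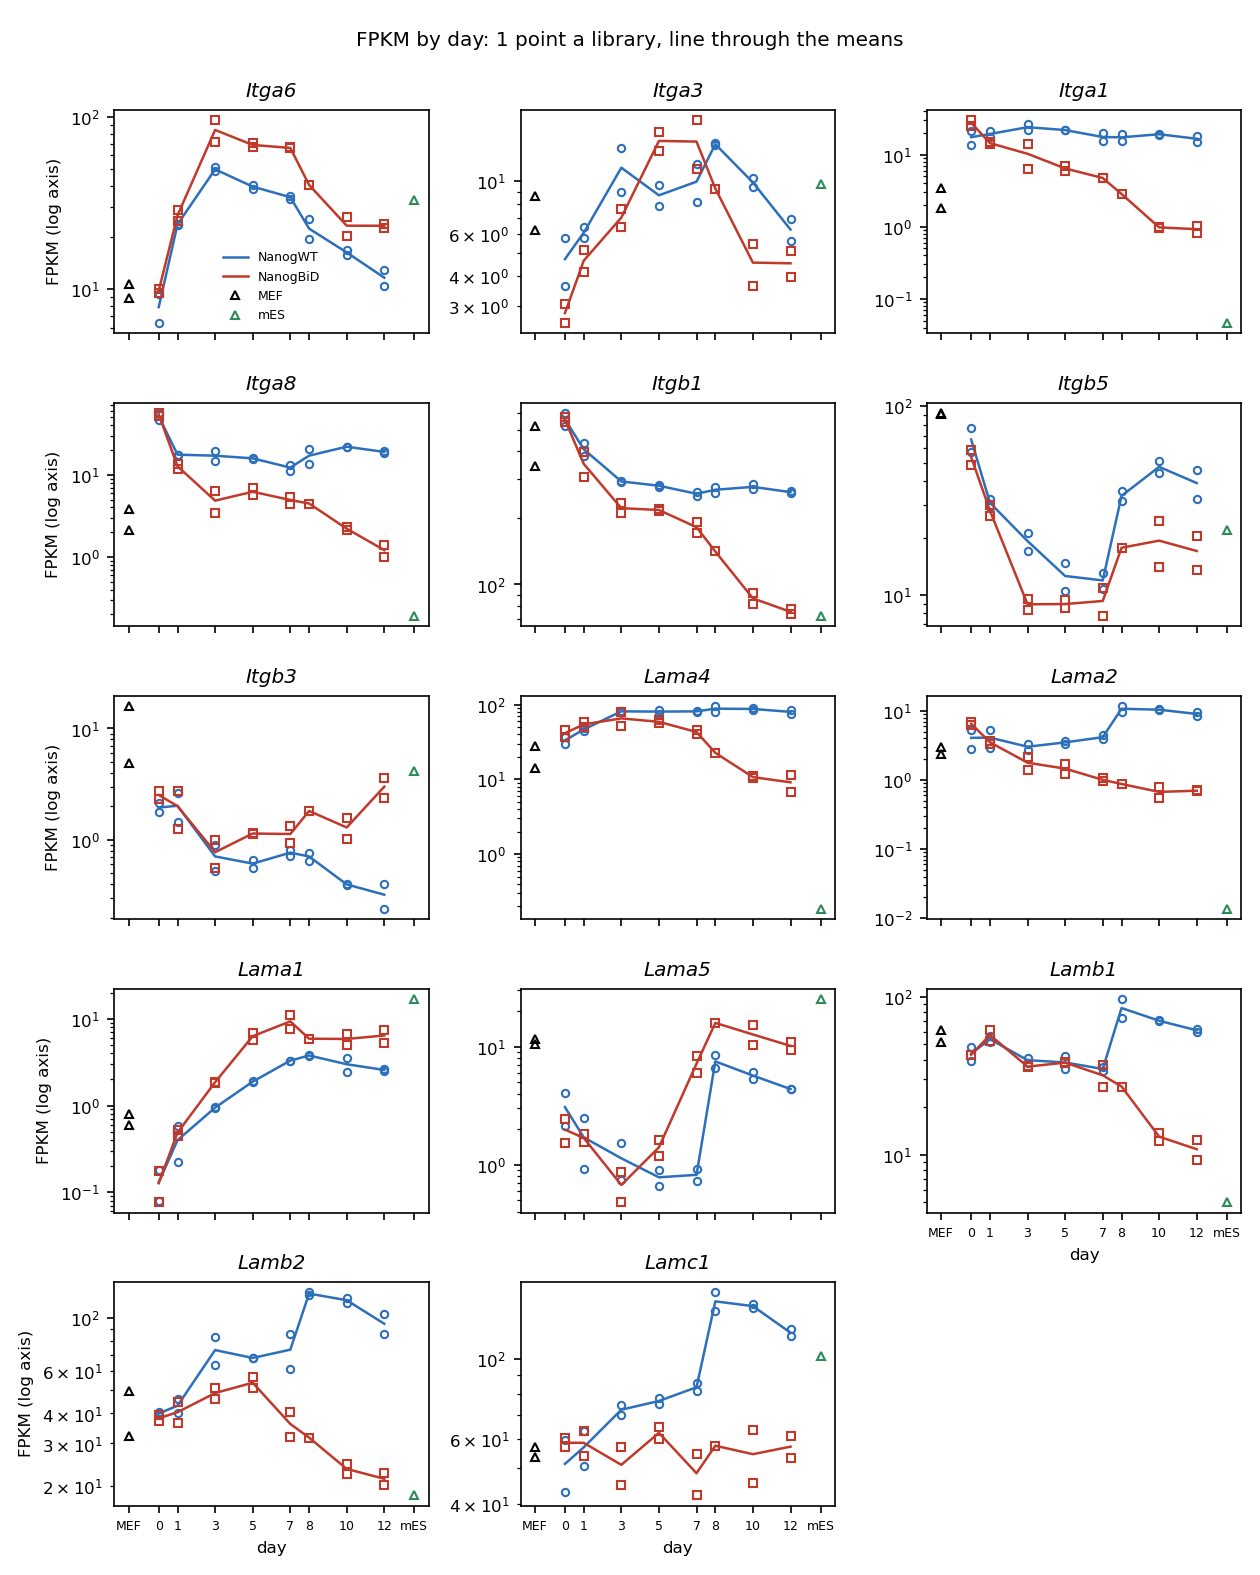
FPKM (vertical, log axis, a separate range for each gene) of 14 members by day (horizontal), with 1 symbol a library and lines through the means, for NanogWT (blue circles) and NanogBiD (red squares), with MEF and mES at the sides. The red line falls away from the blue one for Itga1, Itga8, Itgb1, Lama2, Lama4, Lamb1 and Lamb2, and runs above it for Itga6, from D1 for Lama1 and from D5 for Lama5.

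Laminin alpha chains, which hold the site that integrins bind, moved in opposite directions. Lama4 (chr10:38965515-39110188, plus strand), the alpha chain of mesenchymal and vascular laminins, was the most abundant of them at every day in NanogWT and up to D8 in NanogBiD, where the mean of Lama5 was higher at D10 and D12. NanogBiD libraries held Lama4 at 45.8 and 37.4 on D0, 59.4 and 49.8 on D1, 52.0 and 79.3 on D3, 56.6 and 61.6 on D5, 45.4 and 40.9 on D7, 22.7 on D8, 11.2 and 10.3 on D10, and 6.83 and 11.5 on D12 FPKM. NanogWT libraries held Lama4 at 30.1 and 36.5 on D0, 45.2 and 48.2 on D1, 82.9 and 80.3 on D3, 85.8 and 76.1 on D5, 82.0 and 81.0 on D7, 96.4 and 80.9 on D8, 90.6 and 85.1 on D10, and 75.3 and 85.4 on D12 FPKM. NanogBiD lay above NanogWT at D0 and D1 and below it from D3 on, and from D3 on NanogWT held between 75.3 and 96.4. Lama4 stood at 27.7 and 14.4 in MEF and 0.182 in mES, with mES the lowest of all. The difference was under the fold limit at D7 (-0.90 ± 0.20 (SE, adjusted p = 0.00165)) and called at D10 (-2.92) and D12 (-3.04 ± 0.20 (SE, adjusted p = 3.59e-10)). From D0 to D12 Lama4 fell in NanogBiD (-2.10) and rose in NanogWT (1.25), both called, with a difference of -3.35 ± 0.28 (SE, adjusted p = 3.64e-08).

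Lama2 (chr10:26980036-27619758, minus strand), the alpha chain of muscle laminin, also parted between the combinations, at a lower level. NanogBiD libraries held Lama2 at 6.16 and 6.88 on D0, 3.71 and 3.32 on D1, 1.40 and 2.16 on D3, 1.70 and 1.22 on D5, 1.06 and 0.955 on D7, 0.874 on D8, 0.789 and 0.555 on D10, and 0.706 and 0.692 on D12 FPKM. NanogWT libraries held Lama2 at 2.81 and 5.34 on D0, 2.95 and 5.26 on D1, 2.75 and 3.31 on D3, 3.64 and 3.37 on D5, 4.47 and 3.86 on D7, 9.68 and 11.8 on D8, 10.3 and 10.5 on D10, and 8.36 and 9.70 on D12 FPKM. NanogBiD lay above NanogWT at D0, overlapped it at D1 and lay below it from D3 on. Lama2 stood at 2.37 and 2.95 in MEF and 0.0134 in mES. The difference was -0.88 ± 0.22 (SE, adjusted p = 0.0087) at D5, under the fold limit, and was called at D7 (-1.36 ± 0.22 (SE, adjusted p = 0.000105)), D10 (-2.77) and D12 (-2.56 ± 0.22 (SE, adjusted p = 1.54e-08)). The D0 to D12 changes, -2.14 in NanogBiD and 1.03 in NanogWT, were both called and differed by -3.17 ± 0.31 (SE, adjusted p = 2.89e-07). The rise in NanogWT was lost without replicate 1 of D0 (0.66) or replicate 2 of D12 (0.93) and with quantile normalization (0.73).

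Lama1 (chr17:67697259-67822647, plus strand), the alpha chain of the laminin of the early embryo, rose from near nothing. NanogBiD libraries held Lama1 at 0.0765 and 0.178 on D0, 0.528 and 0.445 on D1, 1.83 and 1.89 on D3, 5.71 and 6.89 on D5, 10.96 and 7.72 on D7, 5.90 on D8, 5.00 and 6.71 on D10, and 5.32 and 7.52 on D12 FPKM. NanogWT libraries held Lama1 at 0.182 and 0.0786 on D0, 0.223 and 0.574 on D1, 0.928 and 0.963 on D3, 1.91 and 1.86 on D5, 3.29 and 3.30 on D7, 3.70 and 3.85 on D8, 2.45 and 3.54 on D10, and 2.64 and 2.50 on D12 FPKM. From D3 on all NanogBiD libraries lay above all NanogWT libraries of the same day. Lama1 stood at 0.795 and 0.589 in MEF and 16.9 in mES, above both combinations. The difference was called at D5 (1.34 ± 0.18 (SE, adjusted p = 3.28e-05)), D7 (1.25 ± 0.18 (SE, adjusted p = 3.77e-05)) and D12 (1.04 ± 0.18 (SE, adjusted p = 9.97e-05)), and at D10 it was 0.78, under the fold limit. The D12 difference went under that limit with quantile normalization (0.95) and without NanogBiD replicate 2 (0.82). The rise from D0 to D7 was 3.18 in NanogBiD and 1.93 in NanogWT, both called, with a difference of 1.25 ± 0.26 (SE, adjusted p = 0.00233).

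Lama5 (chr2:180176373-180225859, minus strand), the alpha chain of laminins 511 and 521 on which pluripotent cells grow well, had the largest difference of any member at D7. NanogBiD libraries held Lama5 at 1.51 and 2.45 on D0, 1.56 and 1.81 on D1, 0.479 and 0.865 on D3, 1.19 and 1.62 on D5, 8.34 and 6.00 on D7, 15.9 on D8, 15.1 and 10.2 on D10, and 10.9 and 9.44 on D12 FPKM. NanogWT libraries held Lama5 at 2.13 and 4.01 on D0, 0.924 and 2.48 on D1, 0.735 and 1.52 on D3, 0.654 and 0.906 on D5, 0.910 and 0.728 on D7, 8.44 and 6.54 on D8, 5.30 and 6.07 on D10, and 4.37 and 4.37 on D12 FPKM. The step up came between D5 and D7 in NanogBiD and between D7 and D8 in NanogWT, and NanogBiD lay above NanogWT without overlap from D5 on. Lama5 stood at 11.5 and 10.5 in MEF and 25.3 in mES, so both combinations were below MEF at D0. NanogBiD stayed below both MEF libraries up to D7, lay above them at D8 and overlapped them at D10 and D12. NanogWT lay below both MEF libraries at every day. The difference was called at D7 (2.15 ± 0.28 (SE, adjusted p = 8.58e-06)), D10 (1.01) and D12 (1.05 ± 0.28 (SE, adjusted p = 0.00375)). The later calls were near the limits, since the D10 difference was not called without NanogBiD replicate 1 (0.75) or NanogWT replicate 1 (0.93) and was 0.97 with quantile normalization, and the D12 difference was 0.96 without NanogBiD replicate 1 and 0.98 with quantile normalization. From D0 to D7 Lama5 rose in NanogBiD (1.46) and fell in NanogWT (-1.12), with a difference of 2.58 ± 0.39 (SE, adjusted p = 0.000144). The fall in NanogWT was lost without replicate 2 of D0 (-0.78).

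Lama3, the alpha chain of the epidermal laminin, was the 1 alpha chain called lower in NanogBiD at D3 alone. It stood at 0.192 and 0.156 FPKM in NanogBiD and 1.71 and 1.31 in NanogWT, a difference of -1.09 ± 0.12 (SE, adjusted p = 4.65e-06) that was -0.98 without NanogWT replicate 1. Lama3 also lay lower in NanogBiD, uncalled, at D5 (0.207 and 0.186 against 0.965 and 1.09) and D7 (0.301 and 0.149 against 1.22 and 0.729). The combinations overlapped at D10, and at D12 NanogBiD lay above (0.446 and 0.352 against 0.202 and 0.283). Lamb3, the beta chain of the same laminin, reached 0.367 FPKM at most in the time course, and Lamc3 0.343.

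Lamb1, Lamb2 and Lamc1, chains present in most trimers, were called apart at D10 and D12 and at no earlier day tested. Lamb1 (chr12:31265234-31329644, plus strand) and Lamb2 (chr9:108479736-108490530, plus strand) are the common beta chains. NanogBiD libraries held Lamb1 at 43.0 and 43.1 on D0, 61.9 and 52.6 on D1, 36.4 and 35.8 on D3, 38.2 and 38.4 on D5, 36.8 and 26.8 on D7, 27.0 on D8, 13.7 and 12.3 on D10, and 9.26 and 12.4 on D12 FPKM. NanogWT libraries held Lamb1 at 39.4 and 48.0 on D0, 51.5 and 56.3 on D1, 38.2 and 41.2 on D3, 34.8 and 42.0 on D5, 35.7 and 34.1 on D7, 97.0 and 73.0 on D8, 69.9 and 71.3 on D10, and 63.0 and 59.8 on D12 FPKM. The combinations overlapped at D0, D1, D5 and D7, and from D8 on every NanogBiD library lay below every NanogWT library. Lamb1 stood at 51.4 and 61.4 in MEF and 4.97 in mES. The difference was -0.15 ± 0.16 (SE, adjusted p = 0.565) at D7, and was called at D10 (-2.36) and D12 (-2.41 ± 0.16 (SE, adjusted p = 6.77e-10)).

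NanogBiD libraries held Lamb2 at 37.1 and 39.3 on D0, 44.6 and 36.4 on D1, 46.0 and 51.3 on D3, 50.9 and 56.5 on D5, 40.5 and 31.8 on D7, 31.7 on D8, 24.6 and 22.5 on D10, and 20.1 and 22.6 on D12 FPKM. NanogWT libraries held Lamb2 at 39.5 and 40.4 on D0, 40.1 and 46.1 on D1, 63.6 and 83.2 on D3, 67.9 and 68.3 on D5, 85.9 and 61.5 on D7, 128 and 124 on D8, 121 and 115 on D10, and 104 and 85.4 on D12 FPKM. NanogBiD lay below NanogWT at every day but D1, where they overlapped. NanogWT stood above its D0 values from D3 on, and NanogBiD below its own from D8 on. Lamb2 stood at 49.4 and 32.3 in MEF and 18.2 in mES. The D7 difference of -0.997 ± 0.16 (SE, adjusted p = 0.00013) fell just short of the fold limit before rounding and was not called, and those at D10 (-2.29) and D12 (-2.09 ± 0.16 (SE, adjusted p = 5.19e-09)) were called.

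Lamc1 (chr1:153218922-153332786, minus strand), the gamma chain of nearly all laminins outside the epidermis, held between 42.1 and 65.1 FPKM in NanogBiD at every day. NanogBiD libraries held Lamc1 at 60.3 and 57.1 on D0, 63.4 and 54.1 on D1, 45.1 and 57.1 on D3, 60.0 and 65.1 on D5, 54.8 and 42.1 on D7, 57.7 on D8, 63.7 and 45.6 on D10, and 61.4 and 53.2 on D12 FPKM. NanogWT libraries held Lamc1 at 43.2 and 59.6 on D0, 50.7 and 63.4 on D1, 70.1 and 74.7 on D3, 75.2 and 77.7 on D5, 85.5 and 81.3 on D7, 152 and 135 on D8, 138 and 141 on D10, and 120.5 and 115 on D12 FPKM. The combinations overlapped at D0 and D1, and NanogWT lay above NanogBiD from D3 on. Lamc1 stood at 57.1 and 53.6 in MEF and 101 in mES. The D0 to D12 change was -0.04 ± 0.18 (SE, adjusted p = 0.874) in NanogBiD and 1.198 ± 0.18 (SE, adjusted p = 2.23e-05) in NanogWT. The rise in NanogWT was 0.97, under the fold limit, without replicate 1 of D0. The difference at D12, -1.03 ± 0.18 (SE, adjusted p = 7.83e-05), went under the fold limit without NanogBiD replicate 2 or NanogWT replicate 1 (-0.93 and -0.996).

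**Figure D5:**
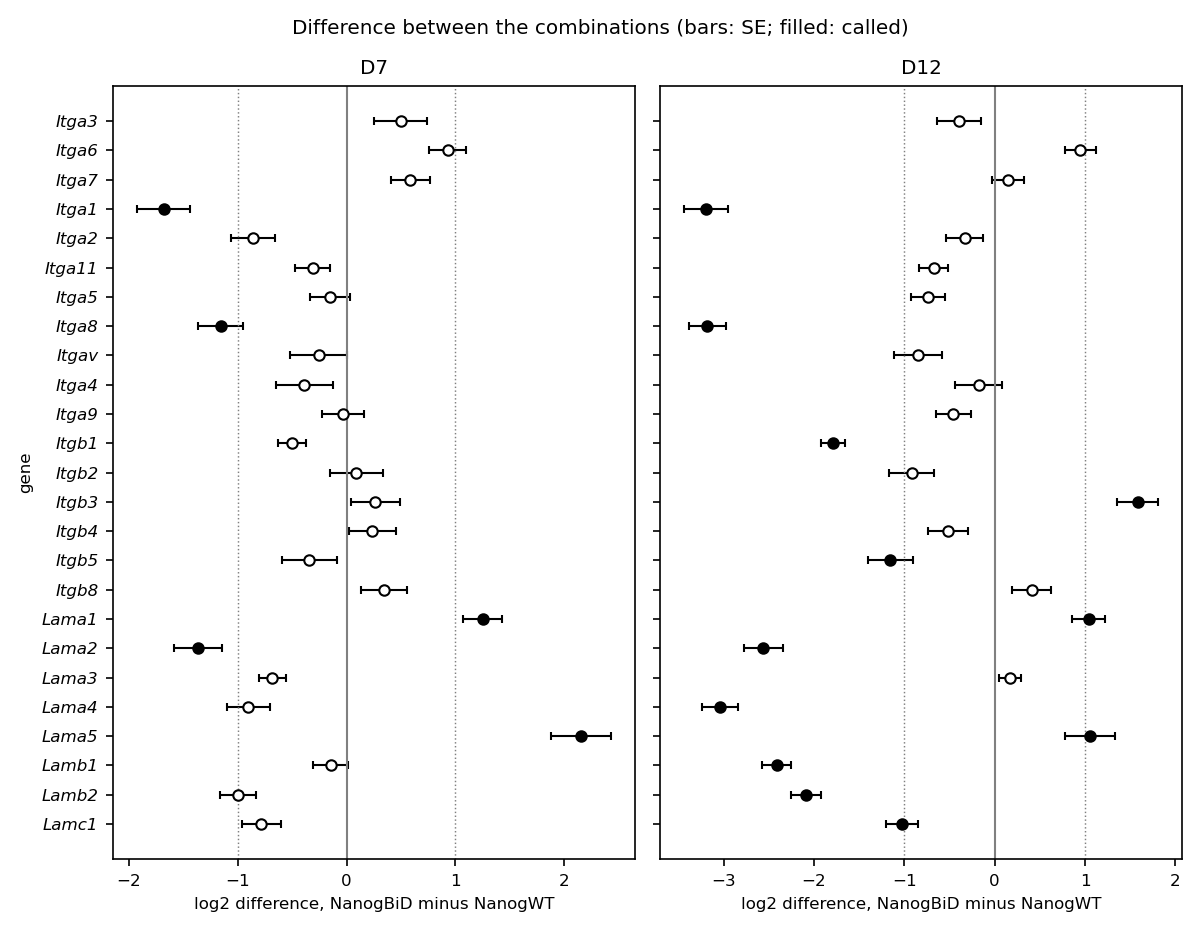
Log2 difference of NanogBiD minus NanogWT (horizontal; on log2(FPKM + 1)) for the 25 tested members (vertical) at D7 and D12, with SE bars, filled points for called differences and dotted lines at the fold limit. Lama5 stands furthest to the right at D7, and Itga1, Itga8 and Lama4 furthest to the left at D12.

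The level of a laminin trimer can be no higher than that of its scarcest chain, which is described here for RNA only. For laminin 111 the scarcest chain was Lama1 at each day of both combinations, at 9.34 ± 2.29 FPKM (SD, n = 2) in NanogBiD and 3.30 ± 0.0122 in NanogWT at D7, and in mES it was Lamb1. For laminin 511 the lowest chain stood at 7.17 FPKM in NanogBiD and 0.819 in NanogWT at D7, and at 9.35 and 4.37 at D12, beside 11.03 in MEF and 4.97 in mES, where it was Lamb1. For laminin 421 it stood at 9.14 in NanogBiD and 80.3 in NanogWT at D12, beside 21.01 in MEF and 0.182 in mES. Lama1 and Lama5 held a mean of 23.8% and 38.5% of laminin alpha FPKM at D12 of NanogBiD, 2.68% and 4.54% at D12 of NanogWT, 1.97% and 32.0% in MEF, and 39.3% and 58.8% in mES. The Lama5 share ran from 27.0% to 37.0% in MEF, near that of NanogBiD at D12.

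Between D7 and D8, the interval that holds the change of medium and, in NanogWT, the change to deeper libraries, laminins rose in NanogWT. Both D8 libraries lay above both D7 libraries for 6 of 8 tested laminins and 7 of 17 tested integrins in NanogWT, where 35.1% of all tested genes did so. The rises were 2.44-fold for Lamb1, 1.71-fold for Lamb2, 1.72-fold for Lamc1 and 2.58-fold for Lama2, as ratios of means. In NanogBiD, where the single D8 library was not deeper, it lay above both D7 libraries for 2 of 8 laminins, Lama5 (2.22-fold) and Lamc1 (1.19-fold), and for 4 of 17 integrins, where 43.4% of all tested genes did so. Most members moved the other way in NanogBiD, with the D8 library below both D7 libraries for 5 of 8 laminins and 11 of 17 integrins, beside 32.5% of all tested genes. In NanogWT 1 laminin and 5 integrins were lower at D8 without overlap, beside 27.9%. Itgb5 rose in both, by 2.80-fold in NanogWT and 1.91-fold in NanogBiD. No test was made of D8.

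Infected cells at D0 already differed from MEF. Against MEF, 10 members were called at D0 of NanogBiD, where 11.3% of 17049 genes were called, 4 of them higher (5.77%) and 6 lower (5.57%). At D0 of NanogWT it was 6 (6.77%), 2 higher (3.67%) and 4 lower (3.11%). Both comparisons share the MEF libraries. Itga8 was 3.83 ± 0.23 (SE, adjusted p = 2.41e-10) in NanogBiD and 3.75 ± 0.23 (SE, adjusted p = 5.27e-10) in NanogWT. Itga1 was 3.02 and 2.36, and Itga11 -3.62 and -2.98. Lama5 (-2.03 and -1.60), Itgb3 (-1.50 and -1.76) and Itga7 (-1.14 and -1.05) were called lower in both. Itga1 and Itga11, both collagen receptors, thus differed from MEF in opposite directions, and Itgb1 and Itga6 were called in neither. The MEF libraries of Itgb3 and Lama4 were far apart, and in NanogBiD Itgb3 (-0.74) and Lama4 (0.56) were not called without MEF replicate 2. Lama4 in NanogBiD was also lost without NanogBiD replicate 1 of D0 (0.87), and Itga7 in NanogWT without NanogWT replicate 2 of D0 (-0.92).

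Within each combination, from D0 to D7, 13 members were called in NanogBiD (18.8% of all genes), 6 higher (12.7%) and 7 lower (6.15%), and 10 in NanogWT (17.7%), 5 higher (12.0%) and 5 lower (5.69%). From D0 to D12, 15 were called in NanogBiD (34.7%), 4 higher (24.6%) and 11 lower (10.2%), and 13 in NanogWT (16.2%), 7 higher (12.2%) and 6 lower (3.95%). Over all genes the median change from D0 to D12 was 0.34 in NanogBiD and 0.19 in NanogWT, and quantile normalization moved these to -0.01 and -0.05. With that normalization 2 members were called higher and 12 lower in NanogBiD, and 4 higher and 6 lower in NanogWT, while over all genes the share of calls that were higher moved from 70.7% to 50.2% and from 75.5% to 55.4%. No member called in either comparison changed direction under it. The laminins of NanogWT held 5 of its 7 rises, namely Lama1, Lama2, Lama4, Lamb2 and Lamc1, and none of its falls, with those of Lama2 and Lamc1 lost without 1 library as given above.

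Stable iPSC were compared between the combinations, with the labelled line as a covariate, on the transcript table summed by symbol. That covariate cannot be told apart from passage. None of the 20 members tested in iPSC was called between the combinations, and neither was any of 12456 genes (0.0%) with limma, of which 201 had an unadjusted p under 0.05. The largest member difference was 0.42 ± 0.63 (SE, adjusted p = 0.999) for Itga11. One NanogBiD library, labelled 9#, stood apart from the other 11, with Itgb1 at 235 FPKM, Itga11 at 17.9 and Lama4 at 5.43, and the same library had the highest summed fibroblast markers, 1350.5 FPKM against 2.45 to 423 in the others. Its pluripotent cell markers summed to 1978 FPKM, against 2892 to 5301 in the others, and the part of either in its values was not tested. The result was 0 members called without it too.

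Against MEF, 22 of 24 tested members were called in iPSC, where 40.4% of 13312 genes were called, 7 of them higher (21.7%) and 15 lower (18.7%), and 22 without library 9#. Lama1 stood between 16.7 and 31.7 FPKM in iPSC and at 0.797 and 1.12 in MEF (3.54 ± 0.20 (SE, adjusted p = 2.20e-09)). Lamc1 stood between 111 and 183 in iPSC and at 53.0 and 53.8 in MEF (1.45), Lama5 between 26.2 and 46.7 and at 12.0 and 12.7 (1.51). None of these 3 overlapped between the groups. Itga6 (1.36), Itgb4 (1.32), Itgal (1.77) and Itgb7 (1.07) were also higher, the last of them not without either MEF library (adjusted p = 0.0795 and 0.16 in limma). Itga7 was likewise lost without either MEF library, Itga9 without MEF replicate 1 (-0.94) and Itgb3 without MEF replicate 2 (-0.92). The largest falls were those of Itga11 (-4.79), Lama4 (-4.21), Lamb1 (-3.20), Itga5 (-3.01) and Itgb1 (-2.93 ± 0.54 (SE, adjusted p = 0.000229)). Itgb1 lay between 36.8 and 235 in iPSC and at 355 and 557 in MEF. MEF is also the control of the D0 comparisons, so these lists share libraries.

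Other genes of the pathway, and markers of other cell types, were counted from lists chosen with earlier results of these data known. Of all tested genes, 5.79% were called higher and 4.65% lower at D7, and 13.5% and 9.97% at D12. Single calls in short lists are therefore not read as results. Of 23 tested integrin activators and actin linkers, 3 were higher in NanogBiD at D7, Parvb (1.66), Tln2 (1.14) and Tns3 (1.09), and none lower, and at D12 2 were higher and 11 lower, with a median of -0.73. Of 15 tested further matrix ligands, 1 was higher and 4 lower at D7, with Ccn2 (-2.85), Thbs1 (-2.40) and the Itga8 ligand Npnt (-2.27) furthest from 0, and at D12 1 was higher and 11 lower, with a median of -1.85. Of 9 basement membrane partners of laminins, 2 were lower at D7, Ntn4 (-2.31) and the heparan sulfate proteoglycan Agrn (-1.09), and 5 at D12. Of 8 laminin receptors outside the integrins, Bcam (1.52), a receptor for laminin alpha 5, and Sdc1 (1.03) were higher and Sdc2 (-1.03) lower at D7, and 4 were lower at D12. Of 10 fibroblast markers, 3 were lower at D7 and 10 at D12, and of 10 pluripotent cell markers, 9 were higher at D7 and 10 at D12. Of 6 tested keratinocyte and epithelial markers, 4 were higher and 1 lower at D7, and 5 higher and 1 lower at D12. The calls of the other marker lists at D12 were 1 lower of 8 for macrophages and leukocytes, none of 3 for platelets, 1 higher and 1 lower of 3 for endothelium, 1 lower of 4 for primitive endoderm and 1 higher of 3 for muscle, Pax7 (1.76). At D7 they were none for macrophages and leukocytes and 1 lower for each of the other 4. The muscle marker lower at D7 was Des (-2.81), and the 6 muscle markers summed to 6.74 and 15.3 FPKM in NanogBiD and 59.4 and 90.4 in NanogWT, with Myod1, Myog, Acta1 and Myh3 under 0.1 FPKM in all 4 libraries, beside the D7 call of Lama2. The primitive endoderm marker lower at D7 was Dab2 (-2.34), with list sums of 15.9 and 16.1 FPKM in NanogBiD and 36.9 and 39.1 in NanogWT. The part of either list in the member differences was not tested.

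Proximal promoters were searched for 4 short motifs. RefSeq windows of 250 bases before the start were at hand for 23 members (26 windows; GRCm38.p6). The GC box GGGCGG, on either strand, was in 9 of the 26 member windows, from 8 members, and in 32.7% of all 32851. The AP-1 letters TGANTCA were in 1 member window (6.75% of all), GGAATG, the TEAD core, in 3 (12.6%), and CCAAT in 4 (33.8%). The windows of Itga1 and Lama5 are shown as those of the members furthest apart between the combinations in each direction at D7, at chr13:115101965-115102214 and chr2:180225860-180226109, both minus strand. Capitals mark the GC box, which had 4 matches before Lama5 and none before Itga1.
Itga1: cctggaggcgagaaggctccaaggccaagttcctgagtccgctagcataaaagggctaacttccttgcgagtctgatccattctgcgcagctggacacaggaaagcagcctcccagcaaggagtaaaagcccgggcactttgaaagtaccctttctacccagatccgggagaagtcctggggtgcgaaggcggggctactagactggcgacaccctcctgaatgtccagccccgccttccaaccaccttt
Lama5: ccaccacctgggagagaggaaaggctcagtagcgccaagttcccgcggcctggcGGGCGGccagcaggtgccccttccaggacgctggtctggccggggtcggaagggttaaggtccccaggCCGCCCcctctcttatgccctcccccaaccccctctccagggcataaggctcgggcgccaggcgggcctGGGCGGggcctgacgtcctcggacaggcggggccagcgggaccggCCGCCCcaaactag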

How the data were processed

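RNA was extracted with FreeZol. The library kit is VAHTS mRNA-seq v3 per the labels and a VAHTS Universal V10 kit per the study's methods, and which was used is not settled here. Per the study's methods and the submitters' processing notes, the authors trimmed reads with Trim Galore 0.6.4, aligned them to mm10 with HISAT2 2.2.1 and estimated expression with StringTie 2.2.1. The deposited values are FPKM, per gene for the time course, MEF and mES, and per transcript for iPSC, MEF and mES. The annotation release and the use of strand are not given in the sources used here. FPKM of Oct4 and Nanog do not separate vector from endogenous RNA and were not used.

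Transcript values were summed by symbol. Genes that reached 1 FPKM in 2 or more libraries of a fit were tested with limma 3.58.1 (R 4.3.3; lmFit, contrasts, eBayes with trend, two-sided) on log2(FPKM + 1), so that differences of low genes are understated. The 31 time-course libraries shared 1 fit with a mean for each combination and day, and MEF and mES joined it for the D0 comparisons. P-values were adjusted by Benjamini-Hochberg over all genes tested. The mES group has 1 library and was not tested. FPKM hold no read totals, so relative depth was read from the steps between low values, of which 83% to 94% came out whole within 0.05 of a read. Replicates correlated at 0.961 to 0.990 across genes over 15 pairs, and no pair was a copy. The limma code was tested on simulated data with independent noise, which checks the code and not the unequal depth of the libraries.

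The members and gene lists were chosen with earlier results of these data known. Of the genes the rule found, 1 is not reported here and enters no count of members, and the other 36 are all accounted for. Those with a group mean of at least 1 FPKM are described by role, and each library is given for those called between combinations at D5, D7 or D12. Of each list, at most the 3 called genes with the largest difference at D7 are named. Coordinates and Itga6 exons are from GENCODE M21 (GRCm38), and promoters from RefSeq (GRCm38.p6). Alternatives were a pseudocount of 0.1, no filter, a common total, quantile normalization, no fold limit, a replicate block, the compared groups alone, no line covariate, averaging the iPSC libraries 1# and 1#-2, and leaving out each replicate.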

Additional observations from a re-analysis of the deposited data

Results flagged for a closer look

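The 6 iPSC libraries of a combination formed a group for each described member, kept when the highest value reached 1 FPKM. Some groups, such as Itga8 and Lama2 in NanogBiD (others up to 0.338 and 0.279), thus entered only through the value that stood apart. Groups of different members also reuse the same libraries, so no chance rate is given. In 42 such groups, 18 values stood apart from the other 5 of their group by Dixon's criterion. Of these, 11 were of 1 library, NanogBiD iPSC replicate 4 (labelled 9#), with FPKM of 26.8 for Itga5, 5.86 for Itga7, 2.08 for Itga8, 17.9 for Itga11, 22.1 for Itgav, 235 for Itgb1, 59.4 for Itgb5, 2.76 for Lama2, 5.43 for Lama4, 18.1 for Lamb1 and 28.3 for Lamb2. Its fibroblast markers summed to 1350.5 FPKM, and their part in these values was not tested. NanogBiD iPSC replicate 2 stood apart with FPKM of 180.0 for Lamc1. NanogWT iPSC replicate 2 stood apart with FPKM of 15.99 for Itga3. NanogWT iPSC replicate 4 stood apart with FPKM of 3.71 for Itga11 and 118 for Itgb1. NanogWT iPSC replicate 5 stood apart with FPKM of 2.23 for Itga9, 4.05 for Itgb4 and 5.95 for Itgb7.

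The change with time differed between the combinations, by the interaction term of the limma fit, for 7 members from D0 to D7 (10.1% of all genes) and 12 from D0 to D12 (23.9%). From D0 to D7, the log2 difference of NanogBiD minus NanogWT changes was -2.35 for Itga1, 1.06 for Itga3, -1.24 for Itga8, 1.25 for Lama1, -1.98 for Lama2, -1.22 for Lama4 and 2.58 for Lama5. From D0 to D12, the log2 difference of NanogBiD minus NanogWT changes was -3.86 for Itga1, -3.26 for Itga8, -1.46 for Itgav, -1.78 for Itgb1, 1.33 for Itgb3, 1.04 for Lama1, -3.17 for Lama2, -3.35 for Lama4, 1.48 for Lama5, -2.40 for Lamb1, -2.02 for Lamb2 and -1.24 for Lamc1. Those of D12 set libraries of unequal depth against each other. The Itga3 value was lost when any of 5 libraries was left out, the Lama1 value of D12 when any of 3 was (0.98, 0.98 and 0.83), and the Itgav value without NanogWT replicate 1 of D0 (-0.98).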

How the results depend on the processing

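Of 146 called member differences, 146 were still called with a pseudocount of 0.1, 145 with no filter, 141 with a common total and 129 with quantile normalization, 96 of 108 were still called in fits of the compared groups alone, and 581 of 638 when 1 library was left out. None changed direction under any of these. The number of members called moved by more than 1.5 times in these cases. With no fold limit it was 1 at D0, 1 at D1, 8 at D3, 8 at D5 and 13 at D7 between combinations, 19 for NanogWT from D0 to D7, 11 for the difference between the D0 to D7 changes and 11 for NanogWT D0 against MEF. With a pseudocount of 0.1 it was 1 at D1, 8 at D5, 10 at D7 and 10 for NanogWT D0 against MEF. With a common total it was 1 at D1, 6 at D5 and 8 at D7, and with the D3 libraries fitted alone it was 0 at D3. Over all genes, a common total gave 96 calls higher and 213 lower at D1, against 62 and 162 without it. At D5 it gave 726 and 768, against 539 and 552. At D7 it gave 1295 and 1086, against 975 and 783. In the main limma fit, 3847 of 16842 genes had an unadjusted p under 0.05 at D3, 4911 at D5 and 6424 at D7. Calls over all genes are not given for the other settings, so these member counts are not read as particular to the members. Leaving out 1 library gave 0 to 1 calls at D0, 3 to 4 at D3, 5 to 6 at D7, 10 to 14 at D10 and 10 to 14 at D12. Depth differs between the combinations from D8 on, and each group has 2 libraries at most in the time course.

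Labels give both combinations the same replicate numbers. The correlation of same-numbered deviations was 0.227 at D0, 0.135 at D1, -0.0647 at D3, -0.0429 at D5, 0.395 at D7, 0.122 at D10 and 0.0202 at D12, so the numbers were not taken to pair the libraries. Under a replicate block, the numbers of called members were the same as without it, 5 at D7 and 12 at D12 between combinations, and all 108 called differences were still called.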
